A study of Arabidopsis thaliana with 6 samples.

Results

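Starch is made in the plastid by a short chain of enzymes. ADP-glucose pyrophosphorylase produces ADP-glucose, starch synthases add its glucose to growing chains, and branching enzymes introduce the branch points of amylopectin. In the guard cells of *Arabidopsis thaliana*, starch is known to be still present at the end of the night and to be broken down after dawn, when the stomata open. The data described here are the transcript levels of 10 genes of starch synthesis in guard cell protoplasts (GCPs), which are guard cells freed of their walls by enzymes. The genes were chosen by locus: *ADG1* (AT5G48300), *APL1* (AT5G19220) and *APL3* (AT4G39210) for ADP-glucose pyrophosphorylase, *SS1* (AT5G24300), *SS2* (AT3G01180), *SS3* (AT1G11720) and *SS4* (AT4G18240) for soluble starch synthases, *GBSS1* (AT1G32900) for the granule-bound synthase, and *SBE2.1* (AT2G36390) and *SBE2.2* (AT5G03650) for branching enzymes. They are 10 of 18001 genes that had a probe above background.

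GCPs were isolated from mature rosette leaves of *gl1* plants in the Columbia background, a mutant without leaf trichomes that both groups shared. SL plants were kept for 3 weeks in short days and then for 2 weeks in long days of 16 h light, and SS plants stayed in short days of 8 h light for all 5 weeks. Each group had 3 samples, numbered 1 to 3, with a separate batch of plants for each number, and each sample was hybridized to 1 single-colour Agilent array. By the labels, photon flux was 41 µmol m-2 s-1 under long days and 100 µmol m-2 s-1 under short days, so that effects of day length and of light intensity cannot be told apart. The labels place the isolation at zeitgeber time (ZT, hours after lights on) 16 for SL and ZT 8 for SS, whereas the study's methods give ZT 16 for both. Under the labels' times, time of day and photoperiod cannot be told apart either. Under the methods' times, ZT 16 fell after the 8 h of light for SS and at the end of the 16 h of light for SL. Darkness at isolation and photoperiod then cannot be told apart.

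On each array, 65.3% to 70.7% of 43603 probes were well above background. Every member was measured by 1 probe, and all 60 member spots were well above background with 0 saturated. The raw median signals of these spots lay between 153 and 3413, over a local background of 25 to 45. Values below are linear signals after background correction and quantile normalization. They compare arrays for 1 gene and say nothing about the order of genes. Of the guard cell markers, all 12 were above background in at least 1 group. Their summed signal was 129600 to 187500 on SL arrays and 133600 to 242800 on SS arrays.

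Between GCPs from SL plants and from SS plants, no starch synthesis gene passed the test of the main comparison, limma without a replicate block. With a replicate block, which takes the pairing by number into account, 1 passed narrowly (*SBE2.2*). Over all 6 arrays, the log2 fold change was negative for 8 members, as it was for 48.1% of all genes, and positive for *GBSS1* and *APL1*. The median was -0.17 over the 10 members, against 0.01 over all 18001 genes. By replicate number, it was -0.13, -0.15 and -0.24. Single arrays moved it widely: it was -0.45 without SS replicate 2, -0.29 without SL replicate 1, -0.03 without SL replicate 2 and -0.0081 without SS replicate 3. Of the 8 members with a negative value, *SS1*, *SS3*, *APL3* and *SBE2.1* took a positive one when an array was left out. The ratio was below 1 in all 3 same-numbered pairs for 6 members (*ADG1*, *SS1*, *SS3*, *SS4*, *SBE2.1* and *SBE2.2*), as it was for 24.4% of all genes. It was above 1 in all 3 pairs for 0 members, as for 24.6% of all genes. *SBE2.2* was the single member whose SL arrays all lay below its SS arrays (4.22% of all genes did so), and 0 members had SL above SS throughout (4.01%).

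Limma without a block, adjusted by Benjamini-Hochberg over all probes, called 0 of 10 members and 0% of all genes, and 0 members had an unadjusted p under 0.05, as 3.72% of all genes had. Once the fit held a replicate block, 1 member was called lower by limma (*SBE2.2*), against 3.14% of all genes, and 0 members higher, against 1.57%. In that fit, 4 members (*SBE2.2*, *SS1*, *SS4* and *ADG1*) were lower at an unadjusted p under 0.05, which held for 13.1% of all genes.

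**Figure D1:**
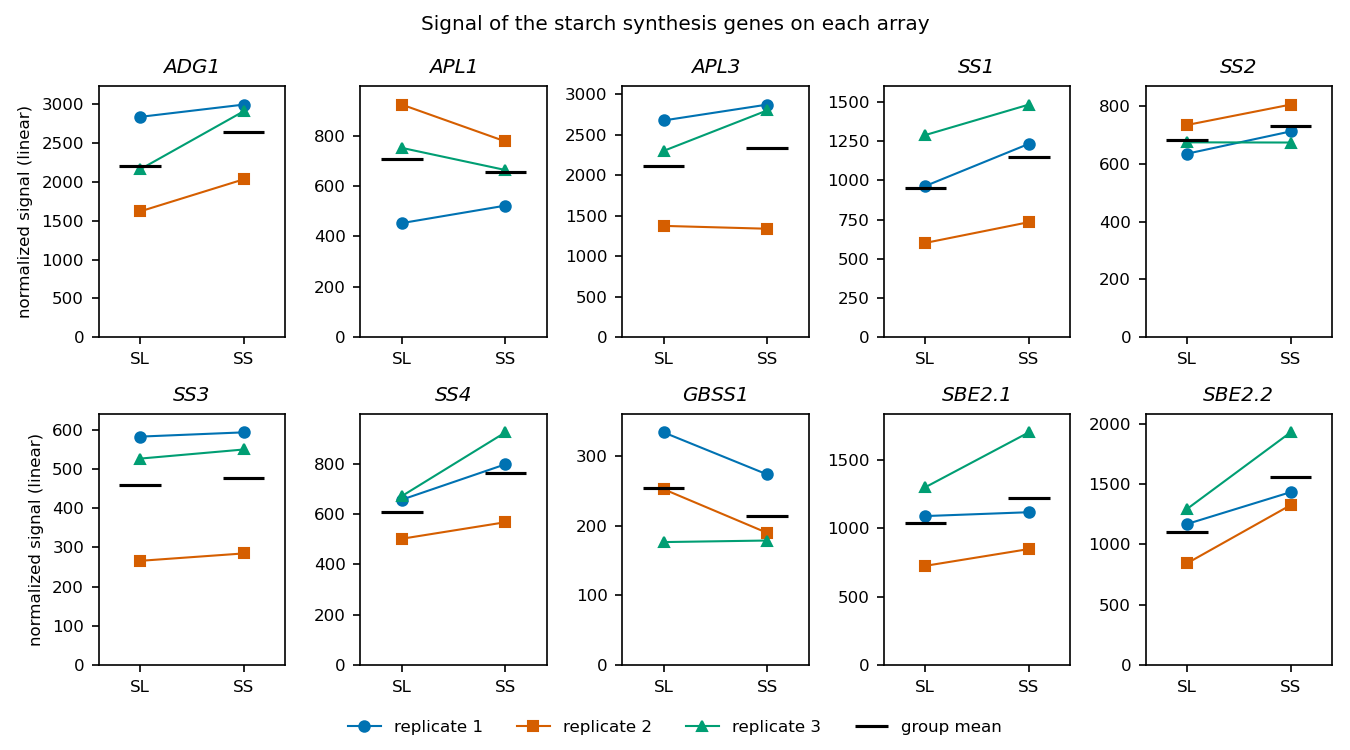
Normalized linear signal of each starch synthesis gene (y axes, from 0, a separate scale per gene) in SL and SS (x axes), with a line joining the arrays of 1 replicate number and a black bar at the group mean. For *SBE2.2* the 3 SL arrays, at 844 to 1294, lie below the 3 SS arrays, at 1326 to 1930, while in the other 9 panels the groups overlap.

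The catalytic small subunit of ADP-glucose pyrophosphorylase, *ADG1*, gave signals of 2840, 1621 and 2164 on SL arrays 1 to 3 and of 2998, 2035 and 2912 on SS arrays 1 to 3. It was lower in SL in each pair, least in pair 1 and most in pair 3, but the groups overlapped. Its log2 fold change was -0.28 ± 0.25 (SE, n = 3 arrays each), with an adjusted p of 0.9997 in limma. It was -0.07 without SL replicate 2 and -0.48 without SL replicate 1. With the replicate block the SE was 0.10 and the adjusted p 0.162.

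The large subunits modulate the activity of the enzyme, and they did not move in the direction of *ADG1* in every pair. *APL1*, the main large subunit of leaves, had signals of 453, 923 and 751 in SL and 522, 777 and 664 in SS. It was lower in SL in pair 1 and higher in pairs 2 and 3, with a log2 fold change of 0.07 ± 0.29 (SE, n = 3 each). *APL3*, a large subunit best known from sink tissues and from sugar responses, had signals of 2678, 1375 and 2302 in SL and 2874, 1340 and 2802 in SS. Here pair 2 alone was slightly higher in SL, and the log2 fold change was -0.12 ± 0.38 (SE, n = 3 each). Before normalization, the raw median signal in pair 2 was lower in SL for *APL1* (702 against 1055) and *APL3* (1078 against 1880). Neither was called in either fit. With the replicate block, limma gave *APL1* a 95% interval of -0.20 to 0.35 and an adjusted p of 0.724, and *APL3* an interval of -0.35 to 0.12 and an adjusted p of 0.499.

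Among the soluble synthases, *SS1* and *SS4* had the more negative differences. *SS1*, which is known to make short amylopectin chains, gave signals of 964, 601 and 1289 in SL and 1233, 733 and 1483 in SS. Every pair was lower in SL, with ratios of 0.782, 0.820 and 0.869, although the replicates of each group spanned a wider range than that difference. *SS1* had a log2 fold change of -0.28 ± 0.36 (SE, n = 3 each) and a limma adjusted p with the replicate block of 0.114.

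*SS4*, which acts in the initiation of starch granules, gave 657, 502 and 672 in SL and 798, 568 and 925 in SS. It was lower in SL in all pairs, with ratios of 0.824, 0.884 and 0.726. The groups overlapped only through SS replicate 2, the lowest of the SS arrays. The log2 fold change was -0.31 ± 0.22 (SE, n = 3 each), with a limma adjusted p of 0.119 with the replicate block.

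The synthases *SS2* and *SS3*, which elongate intermediate and long chains, differed least. *SS2* had signals of 635, 735 and 675 in SL and 713, 805 and 674 in SS, and pair 3 was equal within a ratio of 1.00. It was also the member with the narrowest spread, the highest array exceeding the lowest by 1.16 times in SL and 1.19 times in SS. Its log2 fold change was -0.10 ± 0.13 (SE, n = 3 each), with a 95% interval of -0.42 to 0.22 without the block. *SS3* had signals of 583, 266 and 527 in SL and 594, 285 and 550 in SS. The pairs were nearly level, with ratios of 0.982, 0.934 and 0.958, and the log2 fold change was -0.06 ± 0.40 (SE, n = 3 each). The interval for *SS3* was -0.26 to 0.13 with the replicate block, and -1.01 to 0.88 without it.

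*GBSS1*, the synthase that makes amylose inside the granule, had a positive log2 fold change over the 6 arrays. Its signals were 334, 253 and 177 in SL and 274, 190 and 179 in SS, and it was the dimmest probe of the set in raw signal. The ratio was 1.22 in pair 1, 1.33 in pair 2 and 0.988 in pair 3, so the direction was not shared by all pairs and the groups overlapped. In raw median signal, pair 2 was 184 in SL and 217 in SS, so its direction depends on the normalization. Every member was lower in SL in that pair before normalization. The log2 fold change was 0.23 ± 0.28 (SE, n = 3 each), higher than that of 85.6% of all genes, but 0.01 without SL replicate 1. Limma with the replicate block gave a 95% interval of -0.03 to 0.49 and an adjusted p of 0.260.

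In Arabidopsis leaves, the *GBSS1* transcript is known to cycle over the day under control of the clock. Of 12 clock genes, all above background, 6 were lower in SL in all 3 pairs (24.4% of all genes) and 3 higher (24.6%). Limma with the replicate block called 5 of the 12 lower, against 3.14% of all genes. Among these 5, *PRR9* was dim in SL (96, 109 and 100, against 162, 325 and 190 in SS). The median log2 fold change of the clock genes was -0.41. Their part in the values of *GBSS1* was not tested.

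The genes with the array pattern most like that of *GBSS1* were AT2G44510 (Pearson r = 0.994), *GRF3* (AT2G36400, 0.992), *EDA30* (0.987), *TSL* (0.985) and AT4G29790 (0.980), over 6 arrays. Among the other 18000 genes, 213 reached an r of 0.9. The arrays share plant batches and a common normalization, so the r values only describe these arrays.

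The branching enzymes held the clearest difference. *SBE2.2* had signals of 1169, 844 and 1294 in SL and 1434, 1326 and 1930 in SS. The highest SL array was below the lowest SS array, and the pair ratios were 0.816, 0.636 and 0.671, with a mean of 0.708 ± 0.0952 (SD, n = 3 pairs). The log2 fold change was -0.51 ± 0.22 (SE, n = 3 each), lower than for all but 3.27% of genes. An exact two-sided permutation test gave p = 0.1 for 3 arrays against 3 and p = 0.25 for 3 pairs, in each case the smallest p it can give.

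The limma fit without a block gave *SBE2.2* an unadjusted p of 0.0583 and an adjusted p of 0.9997. With the replicate block the SE was 0.10, the 95% interval -0.75 to -0.26 and the adjusted p 0.0499, just inside the threshold of 0.05. In 9 other settings with the block (other normalizations, no filter on dim probes, or 1 pair left out) it was called in 0, with adjusted p-values of 0.0536 to 0.246. Its direction was the same in all of them. By slide, the log2 fold change was -0.29 on slide 1, which held replicate 1, and -0.61 on slide 2, which held replicates 2 and 3. In the fit without the block it was -0.33 when SL replicate 2 was left out.

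Its close relative *SBE2.1* had signals of 1090, 726 and 1301 in SL and 1118, 849 and 1703 in SS. All pairs were lower in SL, though pair 1 was close to level, and the groups overlapped. For *SBE2.1* the log2 fold change was -0.22 ± 0.32 (SE, n = 3 each), with a limma adjusted p of 0.241 with the replicate block. The log2 fold change of *SBE2.2* was more negative than that of *SBE2.1* in all 3 pairs, by -0.26, -0.43 and -0.19. That difference was given no test beyond the exact permutation test over 3 pairs, which cannot go below its p of 0.25. Probe sequences were not analysed here, so whether either probe also binds the transcript of the other branching enzyme was not tested.

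**Figure D2:**
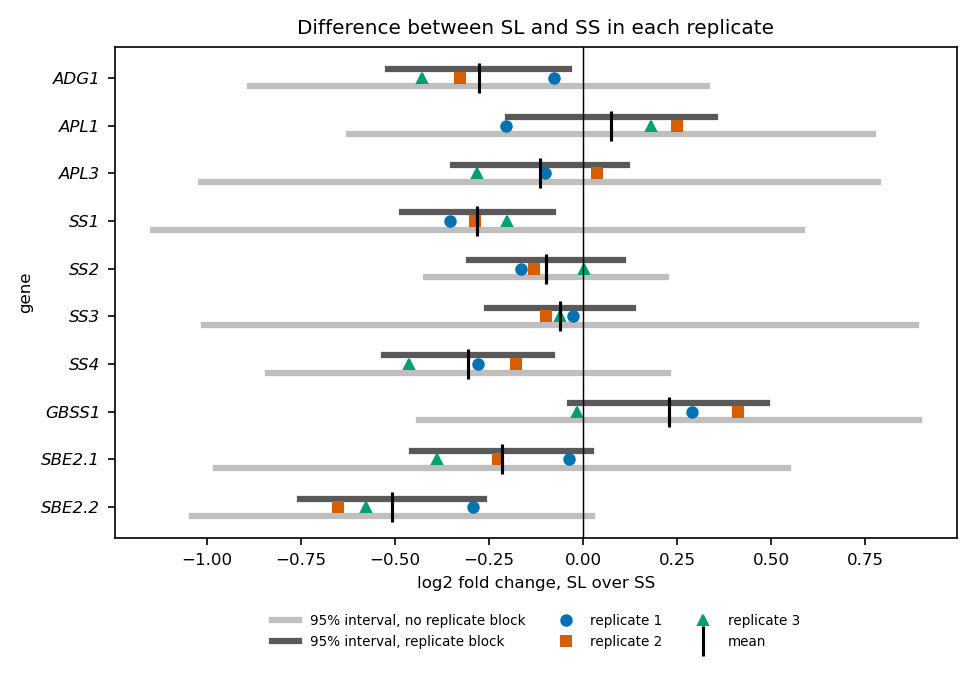
Log2 fold change of SL over SS (x axis) for each starch synthesis gene (y axis) in the 3 same-numbered pairs (coloured symbols), with the mean (black tick) and the 95% limma interval with the replicate block (dark bar) and without it (light bar). All 10 light bars cross 0, while the dark bars of *SBE2.2*, *SS4*, *SS1* and *ADG1* lie below 0. These intervals are not adjusted for the number of genes.

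For all members, the arrays of a group spread more widely than the group means differed. Within a group, the highest array exceeded the lowest by 1.16 to 2.19 times in SL and by 1.19 to 2.14 times in SS. In both groups, replicate 2 was the lowest array for the same 7 members (*ADG1*, *APL3*, *SS1*, *SS3*, *SS4*, *SBE2.1* and *SBE2.2*). *APL1* and *SS2* showed another order, with replicate 2 as the highest array of both groups. *SS3* is the plainest case: replicate 2 gave 266 in SL and 285 in SS, while the other 4 arrays lay between 527 and 594. The replicate block takes up this shared spread, and the SE without the block was between 1.59 times (*SS2*) and 4.98 times (*SS3*) that with it.

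**Figure D3:**
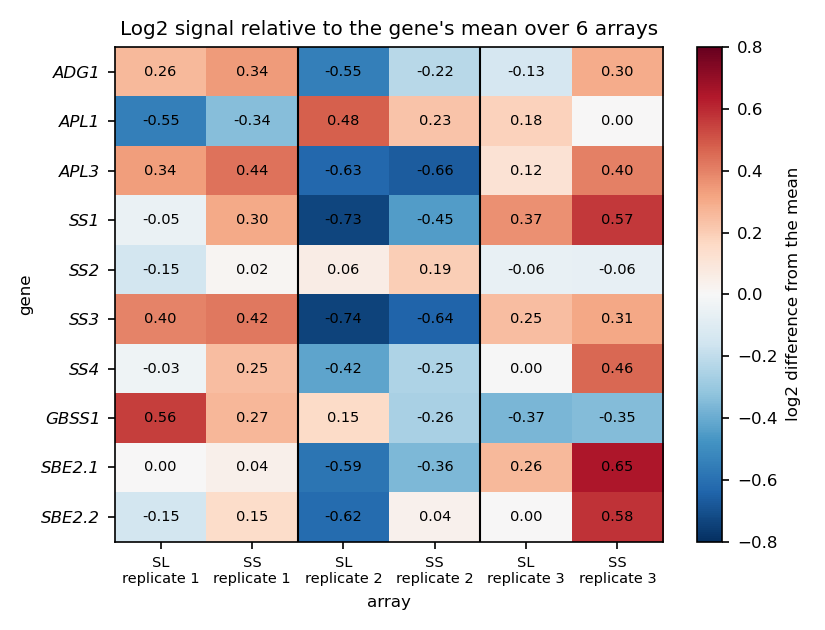
Log2 signal of each starch synthesis gene (rows) on each array (columns, ordered by replicate number with SL left of SS) as the difference from that gene's mean over the 6 arrays (colour and printed value). Both replicate 2 arrays are low for *SS3* (-0.74 in SL and -0.64 in SS) and high for *APL1* (0.48 in SL and 0.23 in SS).

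Across the arrays, the members did not vary as 1 block. Over the 45 pairs of members, Pearson's r of log2 signals across 6 arrays ran between -0.871 and 0.986 with a median of 0.228, and 25 were positive. The highest were *SS3* with *APL3* (0.986), *SS1* with *SBE2.1* (0.957) and *SS1* with *SS4* (0.931). The lowest was *ADG1* with *APL1* (-0.871), the small subunit and a large subunit of the same enzyme, followed by *SS2* with *SS3* (-0.796). The 6 arrays come from 3 plant batches and share a normalization, so these values only describe the arrays.

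Markers of other leaf cells also differed between the groups. Of 8 mesophyll markers, all above background in at least 1 group, 6 were lower in SL in all 3 pairs (24.4% of all genes). The other 2, *CA1* (log2 fold change 0.35) and *GLDP1* (0.25), were higher in all 3 (24.6%). Limma with the replicate block called 5 of the 8 lower, against 3.14% of all genes. Among these 5, *LHCB2.1* was dim in SL (98, 124 and 121, against 164, 200 and 221 in SS). The median log2 fold change of the 8 markers was -0.83. Their summed signal, in which *RBCS1A* and *CAB3* were the largest parts, was 29540 to 57070 on SL arrays and 58510 to 121400 on SS arrays, without overlap. It was lowest in replicate 2 in both groups, as was the signal of the 7 members named above. Among the mesophyll markers, *LHCB2.1* and *GLDP1* did not follow the order of the sum. The summed signal of the guard cell markers was also lowest in replicate 2, at 129600 in SL and 133600 in SS, but single markers differed. In both groups, *MYB60*, *KAT1*, *GORK*, *ALMT12*, *HT1* and *FAMA* were lowest in replicate 2, and *KAT2*, *SLAC1*, *OST1*, *TGG1* and *BLUS1* in replicate 1. *GC1* was lowest in replicate 2 in SL and in replicate 1 in SS. The summed signal of the phloem markers was lowest in replicate 2 in both groups too, though in SL replicate 3 was close (1424 against 1440). Of these markers, *SEOR1* alone had this order in both groups, and *SUC2* was lowest in replicate 3 in both. The sum of the pavement cell markers was lowest in replicate 2 in SL, but in replicate 1 in SS. The 3 phloem markers had a median of -0.30, with 2 lower and 1 higher in all pairs and 1 called lower with the block, and a summed signal of 1424 to 1804 in SL and 1806 to 2125 in SS. The 2 pavement cell markers above background in at least 1 group (of 3 listed) had a median of -0.33 and 0 calls. Their summed signal was 1730 to 1904 in SL and 1810 to 2666 in SS. The guard cell markers had a median of -0.11, 4 of 12 were lower in all pairs and 0 were called. Mesophyll cells also make starch with these enzymes, and the part of such cells in the differences described here was not tested. In these bulk samples, the cells that the RNA of a marker came from were not identified. Fewer cells of a type and less RNA per cell cannot be told apart either.

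A further list held 9 enzymes and transporters of the supply of ADP-glucose, among them *APS2*, *APL2* and *APL4*, which belong to the ADP-glucose pyrophosphorylase family like the members *ADG1*, *APL1* and *APL3*. Of these 9, 3 were lower in SL in all 3 pairs (24.4% of all genes) and 0 higher (24.6%). The median log2 fold change of the 9 was 0.08, with 0 calls in either fit. The plastid ATP carrier *NTT2* had 584, 589 and 615 in SL and 829, 634 and 798 in SS, so that its SL arrays all lay below its SS arrays. Its log2 fold change was -0.33 ± 0.15 (SE, n = 3 each), with an adjusted p of 0.131 in limma with the replicate block. Over the mean of its 3 probes it was -0.14. *APS2*, a relative of the small subunit, had a log2 fold change of 0.29, and *PGI1*, the plastid phosphoglucose isomerase, of -0.17.

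Of 11 other granule and branching proteins, 6 were lower in all 3 pairs (24.4% of all genes) and 2 higher (24.6%), with a median of -0.14. *LESV*, a starch-binding protein that acts in the organization of the granule matrix, was higher in SL. It gave 1448, 924 and 1080 in SL and 937, 754 and 710 in SS, with every pair in the same direction and a log2 fold change of 0.51. It was called higher by limma with the replicate block (adjusted p = 0.0496), but in 0 of 9 other settings with the block, and its log2 fold change was 0.33 without SL replicate 1. *MFP1*, a thylakoid protein involved in placing granules, had a log2 fold change of -0.42. *BE1*, a further member of the branching enzyme family, was at -0.34, and at -0.27 over the mean of its 2 probes. Both were lower in all 3 pairs and neither was called in either fit over 6 arrays (*MFP1* was called in 1 of 9 other settings with the block).

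Genes of starch breakdown, of which 16 of 17 were measured, lay on both sides of 0. Their median was 0.01, 4 were lower in SL in all 3 pairs (24.4% of all genes) and 2 higher (24.6%). *PHS1*, the plastid glucan phosphorylase, had 2364, 1218 and 2296 in SL and 1766, 831 and 1475 in SS. It was higher in SL in each pair by ratios of 1.34, 1.47 and 1.56, and limma with the replicate block called it higher (log2 fold change 0.54, adjusted p = 0.0324), as it did in 4 of 9 other settings with the block. In the fit without the block, *PHS1* was at 0.22 without SS replicate 2 and 0.85 without SL replicate 2. *GWD1*, which phosphorylates starch before its degradation, was likewise higher in all pairs (log2 fold change 0.37), but was not called.

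*BAM1*, the beta-amylase known for starch breakdown in guard cells, had 14493, 24108 and 20569 in SL and 27733, 27850 and 24818 in SS. Its SL arrays all lay below its SS arrays, as for *SBE2.2*. It had a log2 fold change of -0.47 ± 0.21 (SE, n = 3 each), and the adjusted p was 0.141 with the replicate block in limma. It was -0.27 without SL replicate 1, and -0.24 with the deposited background-subtracted signals scaled to the 75th percentile. The difference between synthesis and breakdown genes as sets was not tested.

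**Figure D4:**
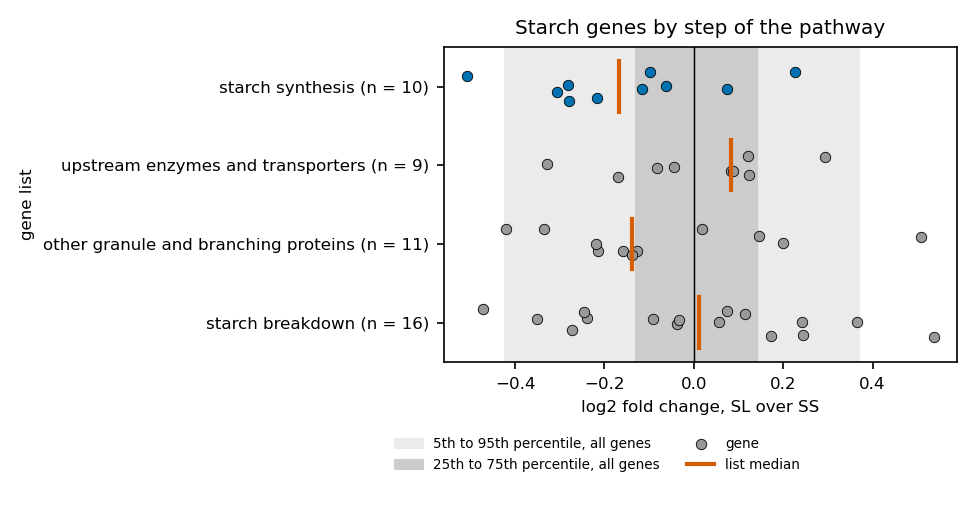
Log2 fold change of SL over SS (x axis) for single genes (points, spread vertically for legibility) of 4 steps of the starch pathway (y axis), with the median of each list (orange bar) over the ranges of all 18001 genes (dark grey, 25th to 75th percentile, and light grey, 5th to 95th percentile). The median is -0.17 for starch synthesis, 0.08 for upstream enzymes and transporters, -0.14 for other granule proteins and 0.01 for breakdown, and *SBE2.2*, at -0.51, is the synthesis gene outside the wider band.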

How the data were processed

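The authors scanned single-colour arrays of GCPs from SL and SS plants (3 each) and read the spots with Feature Extraction 11.5.1.1 from Agilent. As deposited, the intensity values, not normalized between arrays, comprise the median signal and median local background of each spot, and a background-subtracted intensity that the deposited series matrix repeats. Here, in R 4.3.3 with limma 3.58.1, median signals were corrected by normexp (offset 50), converted to log2 and quantile normalized over 6 arrays. Controls and outlier-flagged spots (3 to 7 per array) were dropped. The filter kept 28852 of 43603 probes, those called well above background by the scanner software throughout 1 group or both. Of all probes, 34348 (78.8%) were matched to a gene by looking up their identifiers in RefSeq, and a gene was represented by its brightest probe.

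SL and SS were compared by limma without a block, with Benjamini-Hochberg adjustment over all kept probes at a threshold of 0.05. The smallest p of an exact permutation test is 0.1 for 3 against 3 arrays and 0.25 for 3 pairs. The number of arrays limits the precision. Alternatives were a replicate block, a slide block, other background corrections, normalizations and filters, the methods' t-test on linear signals, and leaving out arrays. The replicate numbers pair the samples: the series text gives a plant batch for each number, and deviations of same-numbered SL and SS arrays from their group means correlated at 0.71, 0.855 and 0.739. Same-numbered samples also share a slide. All 10 members were named, and further pathway genes where called with the replicate block or among the 3 largest absolute log2 fold changes of their list. Members and lists were chosen with earlier results of these data known. The study's RNA-seq data were not analysed here.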

Additional observations from a re-analysis of the deposited data

How the results depend on the processing

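The replicate block raised the number of starch synthesis genes called by limma to 1 (*SBE2.2*), against 0 without it. The count was 0 in every other setting run, including the slide block, 0 by the methods' t-test at its unadjusted threshold (which 4.27% of all genes passed) and 0 after Benjamini-Hochberg. Under other normalizations and filters the median log2 fold change of the members lay between -0.17 and -0.14, no member changed direction, and the number with the same sign in all 3 pairs lay between 4 and 7. Leaving out 1 array, which leaves its partner unpaired, moved the median of the members beyond that range for every array but SS replicate 1 (-0.146). The median was -0.45 when SS replicate 2 was left out and -0.0081 when SS replicate 3 was. It was -0.29 when SL replicate 1 was left out, -0.03 when SL replicate 2 was and -0.24 when SL replicate 3 was. Over leave-one-out fits, 5 members took both signs: *APL1* between -0.15 and 0.37 (-0.013 without pair 2 in the fit with the block), *APL3* between -0.48 and 0.17, *SBE2.1* between -0.45 and 0.052, *SS1* between -0.58 and 0.015, and *SS3* between -0.40 and 0.29. Of the 9 other named genes, *GWD1* (between -0.0030 and 0.72) and *PGI1* (between -0.30 and 0.024) did so. With the deposited background-subtracted signals scaled to the 75th percentile, *APS2* was at 0.66 and *BE1* at -0.68. Over leave-one-out fits, *SBE2.2* ranged between -0.63 and -0.33, *GBSS1* between 0.01 and 0.47, *ADG1* between -0.48 and -0.07 and *SS4* between -0.51 and -0.15. With the replicate block and a whole pair left out, the median was -0.18, -0.20 and -0.14. The combination of the block with no filter, and all alternatives for genes outside the 10 members, were chosen after seeing the data.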
